A study of Homo sapiens with 4 samples.

Results

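The 45 genes described here are targets of the transcription factor p53 and regulators of apoptosis, chosen by name; where several probe sets measured a gene, the brightest one on average stands for it. 42 of the 45 had a probe set annotated with that 1 symbol, among 19775 genes on the array. 41 of the 42 had a mean above the filter level of 4.85 on the log2 scale, which 14648 genes passed; the exception was FAS. The BBC3 probe set also names microRNA genes and is not reported, and BTG2 and FDXR were not analysed here. The arrays came from 2 human neuroendocrine tumour cell lines, NCI-H727 (bronchial) and QGP1 (pancreatic), each given siRNA against DAXX (DAXX-KD) or a universal negative control siRNA by electroporation at a final 50 nM. There was 1 Affymetrix array for each of the 4 groups, DAXX-KD NCI-H727, control NCI-H727, DAXX-KD QGP1 and control QGP1, so no group had a replicate. The labels name 2 DAXX siRNAs without saying whether they were mixed, and they give neither the time after transfection nor the p53 genotype of the lines. Line names follow the sample titles, since other label fields name QGP1 for all 4 arrays; the description field of all 4 also calls the cells ALDH high, with no sort described.

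p53 is held low by the ubiquitin ligase MDM2, itself a p53 target, and once stabilised it switches on genes that stop the cell cycle, repair DNA or prepare the cell to die. Death then runs along 2 routes. In the mitochondrial route BH3-only proteins neutralise the BCL2-type guardians so that BAX and BAK1 open the outer membrane and the apoptosome activates caspases, and in the receptor route ligands such as FASLG bring FADD and CASP8 to receptors such as FAS. DAXX was first described as a protein that binds the death domain of FAS and was then found to activate the kinase MAP3K5 (ASK1) upstream of JNK and to bind MDM2 and p53. It is also the chaperone of histone H3.3 with ATRX, and DAXX and ATRX are often mutated in pancreatic neuroendocrine tumours.

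All values are RMA expression values on the log2 scale, and differences are DAXX-KD minus control on that scale unless a line comparison is named. DAXX itself was at 6.14 in DAXX-KD NCI-H727, against 7.35 in control NCI-H727, and at 6.56 in DAXX-KD QGP1, against 8.52 in control QGP1, which left 43.3% and 25.7% of the control signal. All 8 neuroendocrine and all 5 epithelial markers checked lay above the filter level on every array, whereas 2 of 4 lung markers, NKX2-1 and GRP, were lower in the arrays titled NCI-H727. NKX2-1 was at 3.23 and 3.35 in DAXX-KD and control NCI-H727, under the filter level, against 8.38 and 8.77 in DAXX-KD and control QGP1. Of the islet markers, NKX2-2 was at 9.25 and 9.17 in DAXX-KD and control NCI-H727, against 5.93 and 4.80 in DAXX-KD and control QGP1, while PAX6, ISL1 and SST were lower in NCI-H727, with line differences (NCI-H727 minus QGP1) of -1.31, -0.66 and -1.62 (limma adjusted p = 0.00196, 0.0142 and 0.00213). Whether the line names in the titles are exchanged was not tested; an exchange would turn round every direction between the lines given below, and the differences given for each line would belong to the other. Of the markers of other cell types, the summed log2 level over 7 fibroblast and endothelial genes ranged from 34.7 to 36.1 over the 4 arrays and that over 4 leukocyte genes from 19.7 to 23.2. Of the 7, COL1A1, DCN, PECAM1 and VWF lay above the filter level on every array, as did the leukocyte genes LYZ and CD3E, while PTPRC lay under it on all. PECAM1 was 2.08-fold higher in DAXX-KD QGP1. Of the other markers, GRP was 2.36-fold lower in DAXX-KD NCI-H727 and 2.06-fold lower in DAXX-KD QGP1, and in DAXX-KD QGP1 NKX2-2 was 2.19-fold higher and SST 1.69-fold lower. The part of such signal in the results below was not tested.

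**Figure D1:**
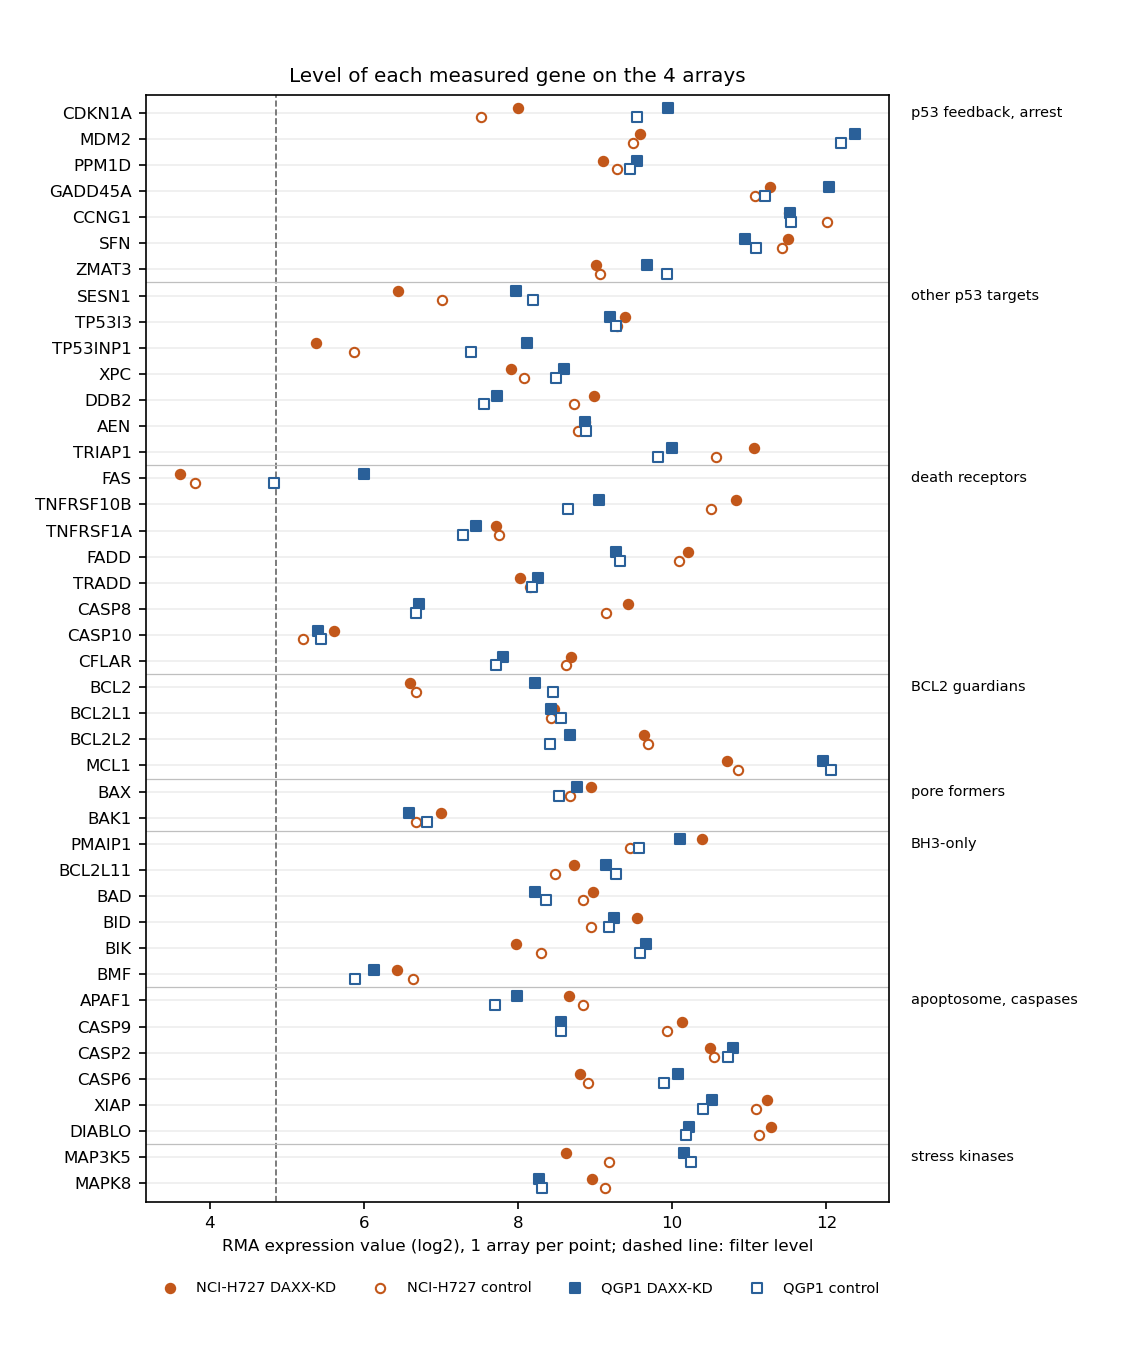
RMA expression values (log2, horizontal axis) of the 42 measured genes, 1 point per array, filled for DAXX-KD and open for control, circles for NCI-H727 and squares for QGP1, grouped by role. The filled and open points of a line lie close together for most genes, while the lines stand apart for genes such as MDM2 and CASP8; FAS lies under the dashed filter level on every array but DAXX-KD QGP1.

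Most of these genes differed by less than 1.5-fold between DAXX-KD and control cells, and the 2 past that size in each line were higher. The median difference over the 41 genes past the filter was 0.07 in NCI-H727 and 0.07 in QGP1, beside 0.02 and 0.02 over all 14648 genes. The member medians depended on the setting: averaging a gene's probe sets gave 0.09 in NCI-H727 and 0.02 in QGP1, and a second quantile normalization gave 0.13 and 0.05. In NCI-H727, 2 of the 41 (PMAIP1 and BID) were at least 1.5-fold higher, where 1.6% of all genes were, and 0 were at least 1.5-fold lower, where 4.96% of all genes were. SESN1 (-0.58), MAP3K5 (-0.56) and CCNG1 (-0.50) were nearly as far below control there as BID (0.60) was above it. In QGP1, 2 of the 41 (GADD45A and TP53INP1) were at least 1.5-fold higher, where 1.74% of all genes were, and 0 were at least 1.5-fold lower, where 1.32% were. At the brightest probe set none of the 41 reached 2-fold, a size that 1.5% of all genes reached in NCI-H727 and 0.492% in QGP1; with the mean of its probe sets PMAIP1 was past it in NCI-H727, at 1.16. The differences of the 41 ran from -0.58 (SESN1) to 0.93 (PMAIP1) in NCI-H727 and from -0.26 (ZMAT3) to 0.83 (GADD45A) in QGP1. 13 of the 41 were higher in both lines (31.7%, beside 28.8% of all genes), 7 were lower in both (17.1%, beside 22.6%) and 21 had opposite signs (51.2%, beside 48.1%), shares near those of all genes.

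A joint limma fit of treatment over both lines, with cell line as a block, was run on all 14648 genes. It called 0 of the 41 genes at an adjusted p under 0.05, and 0% of all genes. DAXX itself, the silenced gene, was not called (limma adjusted p = 0.374, the smallest that any gene had). A count of 0 here thus does not show that a gene was unchanged. At an unadjusted p under 0.05 it listed 4 of the 41 as higher in DAXX-KD (PMAIP1, CDKN1A, TNFRSF10B and GADD45A), beside 2.8% of all genes, and 1 as lower (SESN1), beside 4.12% of all genes. With 1 array per group the lines were the only repeats, so the sizes below are descriptions of these arrays. As a yardstick, probe sets of the same gene disagreed with an SD of 0.28 in NCI-H727 and 0.20 in QGP1, a spread that holds no error between cultures.

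**Figure D2:**
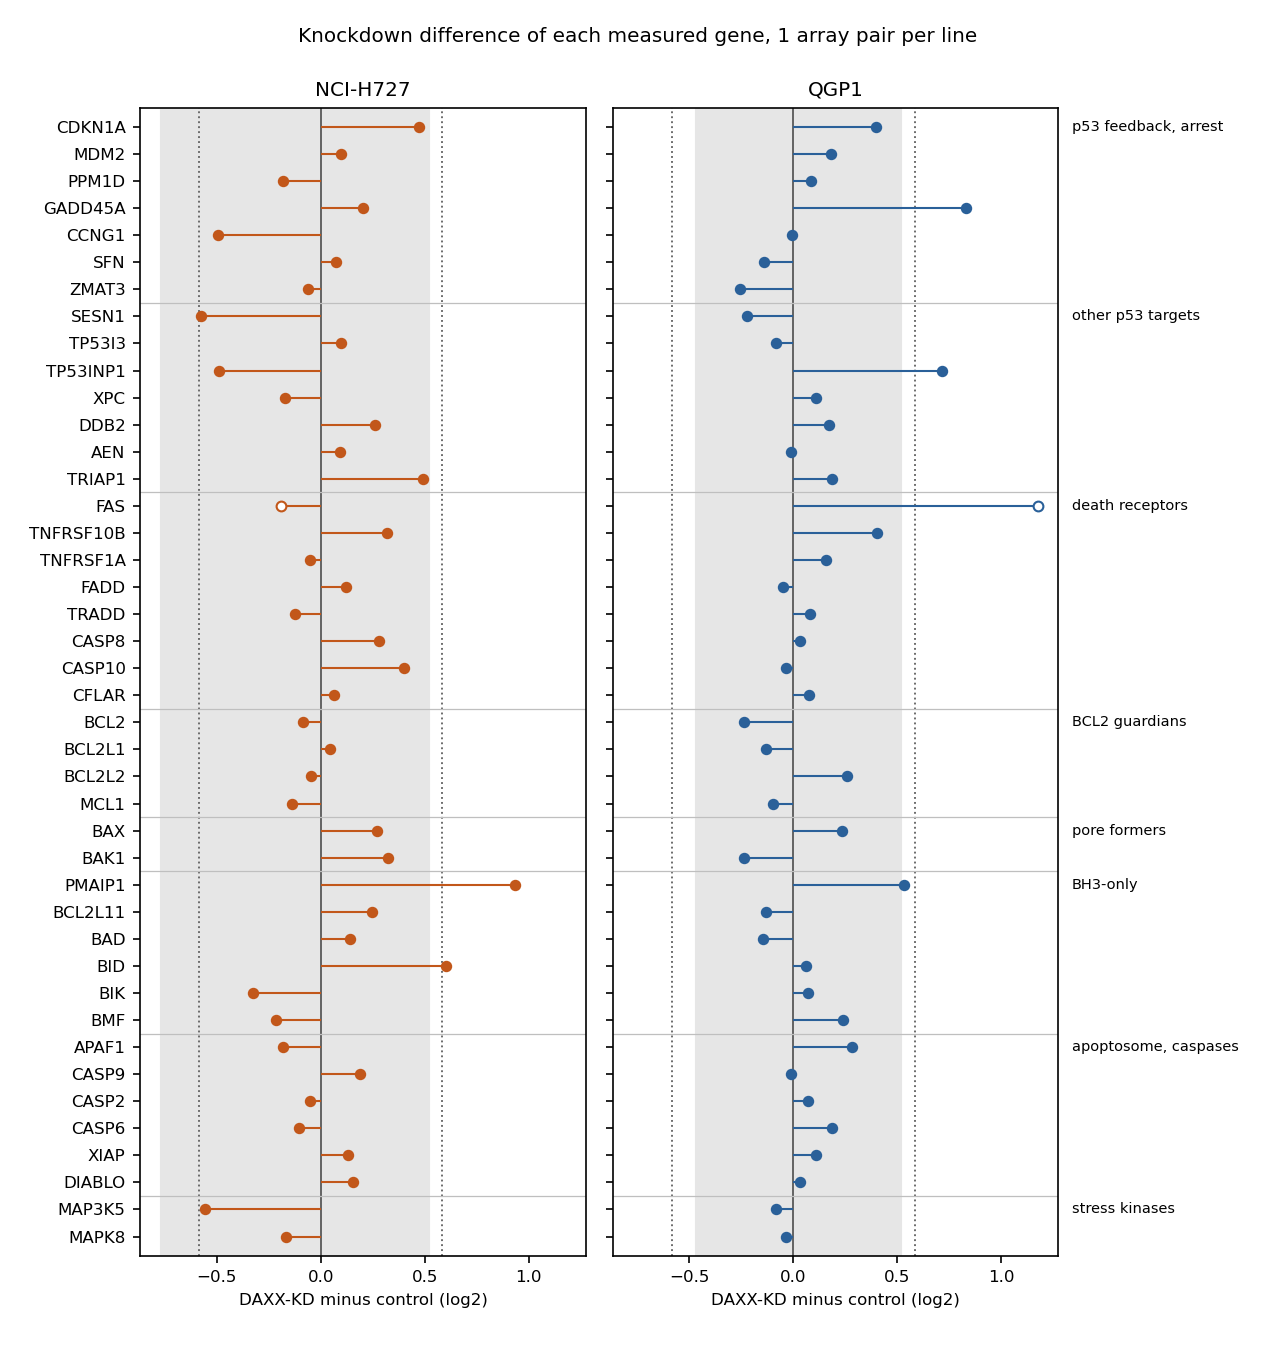
DAXX-KD minus control (log2, horizontal axis) for the 42 measured genes in NCI-H727 and QGP1, each from 1 pair of arrays; grey bands hold the central 95% of all genes past the filter, dotted lines mark 1.5-fold and open points mark FAS, which is under the filter. PMAIP1 lies outside the band in both lines (0.93 and 0.53), BID only in NCI-H727, and GADD45A, TP53INP1 and FAS only in QGP1.

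Promoter sequence is shown for PMAIP1 and CDKN1A, the genes with the smallest unadjusted p among the higher ones, for FAS, and for SESN1, the 1 gene listed as lower. Each is the 250 bases before the annotated start in RefSeq (GRCh38.p14), 5′ to 3′ on the gene's strand, with GC boxes (GGGCGG) and CRE half-sites (TGACG) in capitals on either strand. PMAIP1 lies at chr18:59899746-59899995 (+), CDKN1A at chr6:36678464-36678713 (+), FAS at chr10:88990548-88990797 (+) and SESN1 at chr6:109094847-109095096 (-).
PMAIP1: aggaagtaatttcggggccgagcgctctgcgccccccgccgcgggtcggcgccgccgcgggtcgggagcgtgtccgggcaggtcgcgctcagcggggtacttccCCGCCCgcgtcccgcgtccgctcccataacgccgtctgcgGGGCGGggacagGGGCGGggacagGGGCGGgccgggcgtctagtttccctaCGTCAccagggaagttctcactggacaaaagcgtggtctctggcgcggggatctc
CDKN1A: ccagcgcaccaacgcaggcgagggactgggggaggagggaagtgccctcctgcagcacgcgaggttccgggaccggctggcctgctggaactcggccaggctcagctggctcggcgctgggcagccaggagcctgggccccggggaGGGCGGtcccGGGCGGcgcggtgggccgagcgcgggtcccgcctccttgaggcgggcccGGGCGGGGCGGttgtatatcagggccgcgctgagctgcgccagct
FAS: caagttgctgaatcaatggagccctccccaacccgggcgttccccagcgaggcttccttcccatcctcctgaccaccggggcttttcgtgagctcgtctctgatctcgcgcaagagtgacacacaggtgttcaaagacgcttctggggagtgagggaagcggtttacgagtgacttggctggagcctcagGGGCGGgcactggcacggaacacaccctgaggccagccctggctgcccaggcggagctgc
SESN1: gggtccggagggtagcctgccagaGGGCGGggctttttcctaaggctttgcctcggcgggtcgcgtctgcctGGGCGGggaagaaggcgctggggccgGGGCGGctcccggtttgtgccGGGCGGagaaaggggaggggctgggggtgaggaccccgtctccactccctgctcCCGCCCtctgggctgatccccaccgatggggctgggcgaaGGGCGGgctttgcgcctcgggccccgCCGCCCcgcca

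The PMAIP1 window held 4 GC boxes and 1 CRE half-site, which starts 55 bases before the annotated start on the opposite strand. CDKN1A held 4 GC boxes, 2 of them overlapping by 1 base, SESN1 held 7 and FAS held 1. Windows were found for 37 of the 45 genes. 30 of the 37 held a GC box (81.1%, beside 42.3% of all 27305 windows of the same length) and 12 held a CRE half-site (32.4%, beside 21.7%). The 10-base p53 half-site motif was in 3 of the 37 (FDXR, AEN and BAK1; 8.11%, beside 5.53%), the ATF4 composite core TGATGNAA in 0 (beside 3.19%), TATAAA in 1 (BCL2L1; 2.7%, beside 11.1%) and the E-box CACGTG in 2 (BAX and BBC3; 5.41%, beside 6.49%). Both strands were searched for each motif, and none of these motifs contains another. The 27305 windows were not limited to genes measured here or to those past the filter. Whether the motif shares of the 37 differ from those of genes past the filter was not tested. A match describes letters in this window and no match says nothing about a factor, since p53 sites of several of these genes are known to lie further upstream or in introns.

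Among the genes of p53 feedback and cell cycle arrest, CDKN1A and GADD45A were higher after DAXX siRNA in both lines. CDKN1A, the cyclin-dependent kinase inhibitor p21, was at 7.99 in DAXX-KD NCI-H727, against 7.52 in control NCI-H727, and at 9.94 in DAXX-KD QGP1, against 9.54 in control QGP1. It was thus 1.39-fold and 1.32-fold higher, with a joint difference of 0.43 (SE 0.13, higher in 2 of 2 lines, limma adjusted p = 0.608). GADD45A, a stress protein that slows the cycle and aids DNA repair and is a target of ATF4 as well as of p53, was at 11.27 in DAXX-KD NCI-H727, against 11.07 in control NCI-H727, and at 12.04 in DAXX-KD QGP1, against 11.20 in control QGP1. That is 1.15-fold and 1.78-fold. As high relative to control were 21.5% of all genes in NCI-H727 and 0.457% in QGP1. The GADD45A difference of 0.20 in NCI-H727 was less than the SD of 0.28 between probe sets of a gene there. CDKN1A and GADD45A each rest on 1 probe set, and the joint difference of GADD45A was 0.52 (SE 0.19, higher in 2 of 2 lines, limma adjusted p = 0.679).

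MDM2 was at 9.59 in DAXX-KD NCI-H727, against 9.49 in control NCI-H727, and at 12.37 in DAXX-KD QGP1, against 12.19 in control QGP1. These differences of 0.10 and 0.18 lie within the spread between probe sets, and the 6 further MDM2 probe sets past the filter ranged between -0.50 and 0.04 in NCI-H727 and between -0.34 and 0.56 in QGP1, so MDM2 showed no one direction. PPM1D, the phosphatase that ends p53 signalling, differed by -0.18 in NCI-H727 and 0.09 in QGP1. SFN, the 14-3-3 protein that holds back mitosis, differed by 0.07 and -0.14. CCNG1, cyclin G1, was 1.41-fold lower in DAXX-KD NCI-H727 and differed by -0.01 in QGP1. ZMAT3, an RNA-binding zinc finger protein, differed by -0.06 and -0.26, and its 4 probe sets past the filter were all lower in both lines, by 0.38 at most. Of the 7 measured p53 feedback and arrest genes, 4 were above 0 in each line, beside 7687 of 14648 genes in NCI-H727 and 7838 in QGP1.

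The p53 targets of redox control, DNA repair and other roles included, among the 41 genes past the filter, the lowest in NCI-H727 (SESN1) and the one with the widest opposed values (TP53INP1). SESN1, a sestrin that restrains mTORC1 and oxidative damage, was at 6.44 in DAXX-KD NCI-H727, against 7.02 in control NCI-H727, and at 7.97 in DAXX-KD QGP1, against 8.19 in control QGP1. It was 1.49-fold and 1.17-fold lower on its single probe set, with a joint difference of -0.40 (SE 0.15, lower in 2 of 2 lines, limma adjusted p = 0.694). As low relative to control were 5.11% of all genes in NCI-H727 and 12.1% in QGP1. TP53INP1, a stress-induced protein of autophagy and apoptosis, was at 5.38 in DAXX-KD NCI-H727, against 5.87 in control NCI-H727, and at 8.11 in DAXX-KD QGP1, against 7.40 in control QGP1. The line differences of -0.49 and 0.72 have opposite signs, and its second probe set past the filter reversed both, at 0.33 and -0.42, so the direction of TP53INP1 depended on the probe set.

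TRIAP1, a small mitochondrial protein that counters apoptosis, was 1.41-fold higher in DAXX-KD NCI-H727 and 1.14-fold higher in DAXX-KD QGP1. DDB2, which recognises ultraviolet lesions, was 1.20-fold and 1.13-fold higher. XPC, the damage sensor of nucleotide excision repair, the quinone oxidoreductase TP53I3 and the nuclease AEN differed by -0.17 to 0.10 in NCI-H727 and by -0.08 to 0.11 in QGP1. Of the 7 measured genes of this group, 2 were higher in both lines and 1 was lower in both.

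FAS, the receptor through which DAXX was found, showed the widest knockdown difference of the 42 measured genes in QGP1, and it was dim. It was at 3.62 in DAXX-KD NCI-H727, against 3.81 in control NCI-H727, both under the filter level, and at 6.01 in DAXX-KD QGP1, against 4.83 in control QGP1, which is just under that level. The QGP1 difference of 1.18 corresponds to 2.26-fold; 0.157% of genes past the filter were as high relative to control, and FAS, being outside the filter, had no place in the joint limma fit. Its 4 other probe sets were also under the filter on average and differed by -0.24 to 0.82 in QGP1, 3 of them higher, and by -0.29 to 0.23 in NCI-H727. FAS signal was thus seen above the filter level on the DAXX-KD QGP1 array, where its second brightest probe set was also above it, at 5.25, against 4.45 in control QGP1. Its ligand FASLG was under the filter level on all 4 arrays.

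TNFRSF10B was higher in both lines. This p53-induced death receptor, the TRAIL receptor DR5, was at 10.83 in DAXX-KD NCI-H727, against 10.51 in control NCI-H727, and at 9.04 in DAXX-KD QGP1, against 8.64 in control QGP1. These are 1.25-fold and 1.32-fold, the joint difference was 0.36 (SE 0.13, higher in 2 of 2 lines, limma adjusted p = 0.673), and all 3 probe sets past the filter were higher in both lines, by 0.06 to 0.74. With the mean of its probe sets the QGP1 difference was 0.17 and the joint unadjusted limma p was 0.0829. The other TRAIL death receptor, TNFRSF10A, which is on the list of further p53 targets and is named after its values were seen, differed by 0.23 in NCI-H727 and -0.07 in QGP1. The TNF receptor TNFRSF1A, the adaptors FADD and TRADD and the caspase inhibitor CFLAR differed by -0.13 to 0.12 in NCI-H727 and by -0.05 to 0.16 in QGP1. The initiator caspase CASP8 differed by 0.28 in NCI-H727 and 0.03 in QGP1, and CASP10 by 0.40 and -0.03. In NCI-H727 the second probe set past the filter was at -0.04 for CASP8 and -0.18 for CASP10. CFLAR was lower at 9 of its 10 probe sets past the filter in NCI-H727, by 0.31 at most, while its brightest was 0.06 higher. Most of these probe sets bear the x_at suffix, which marks possible binding of other transcripts.

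Among BH3-only proteins, PMAIP1 (NOXA), which neutralises MCL1 and is a target of p53 and of ATF4, was the member with the widest difference in NCI-H727 and was higher in both lines. It was at 10.38 in DAXX-KD NCI-H727, against 9.45 in control NCI-H727, and at 10.10 in DAXX-KD QGP1, against 9.57 in control QGP1. The DAXX-KD array was thus 1.91-fold and 1.45-fold higher, a rank that 0.225% of all genes reached in NCI-H727 and 2.34% in QGP1. Its second probe set was higher too, by 1.38 in NCI-H727 and 0.29 in QGP1. The joint difference of PMAIP1 was 0.73 (SE 0.15, higher in 2 of 2 lines, limma adjusted p = 0.491). Both probe sets have the s_at suffix, which marks probes shared by several transcripts, so PMAIP1 had no value without such probe sets.

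BID, which links caspase-8 to the mitochondria, was at 9.55 in DAXX-KD NCI-H727, against 8.94 in control NCI-H727, and at 9.24 in DAXX-KD QGP1, against 9.18 in control QGP1. It was 1.52-fold higher in NCI-H727 and 1.04-fold higher in QGP1; its 2 other probe sets were also higher in NCI-H727, by 0.12 and 0.35, and were lower in QGP1, by 0.13 and 0.15. BCL2L11 (BIM) was at 0.24 in NCI-H727 and -0.13 in QGP1, and BAD at 0.14 and -0.15. BIK, at -0.32 and 0.07, and BMF, at -0.22 and 0.24, ran the other way. Apart from PMAIP1 and BID, the 4 measured BH3-only genes thus had opposite signs in the lines, each by less than 1.5-fold.

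At the brightest probe set, the guardians and pore formers of the BCL2 family differed by 1.25-fold at most (BAK1 in NCI-H727). Some dimmer probe sets past the filter went further, such as 1 of BAX at 0.34 in NCI-H727 and 1 of BCL2 at -0.38 in QGP1. MCL1, the short-lived guardian bound by PMAIP1, was 1.10-fold lower in DAXX-KD NCI-H727 and 1.07-fold lower in DAXX-KD QGP1 at its brightest probe set, while 3 of its 4 others past the filter were higher in NCI-H727 and 4 of 4 in QGP1. BCL2, BCL2L1 (BCL-XL) and BCL2L2 (BCL-W) differed by -0.08 to 0.05 in NCI-H727 and by -0.23 to 0.26 in QGP1. BAX was 1.21-fold higher in DAXX-KD NCI-H727 and 1.18-fold higher in DAXX-KD QGP1, and its second probe set was higher in both lines. BAK1 differed by 0.32 and -0.24.

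In the apoptosome group, XIAP, which blocks caspases, was higher at 7 of 7 probe sets in both lines, although its brightest probe set differed by only 0.13 in NCI-H727 and 0.11 in QGP1. Its 6 others ranged from 0.13 to 0.61 in NCI-H727 and from 0.04 to 0.75 in QGP1. DIABLO, the mitochondrial protein that relieves XIAP, was 1.11-fold higher in DAXX-KD NCI-H727 and 1.02-fold higher in DAXX-KD QGP1. APAF1, the apoptosome scaffold, differed by -0.18 and 0.28, the initiator CASP9 by 0.19 and -0.01, CASP2 by -0.05 and 0.07, and CASP6 by -0.10 and 0.19. In QGP1 the 2 dimmer APAF1 probe sets were at 0.16 and -0.47, so APAF1 showed no one direction there. The probe sets of CASP2 and CASP6 past the filter all lay within 0.19 of 0, less than the spread between probe sets of a gene.

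MAP3K5 was lower after DAXX siRNA in NCI-H727 and little different in QGP1. It was at 8.62 in DAXX-KD NCI-H727, against 9.18 in control NCI-H727, and at 10.16 in DAXX-KD QGP1, against 10.24 in control QGP1. The difference of -0.56 in NCI-H727 corresponds to 1.47-fold lower, and 5.43% of all genes were as low relative to control there. The second MAP3K5 probe set differed by -0.58 in NCI-H727 and by 0.05 in QGP1. The joint difference was -0.32 (SE 0.16, limma adjusted p = 0.803). MAPK8 (JNK1), the kinase further down, was at 8.96 in DAXX-KD NCI-H727, against 9.13 in control NCI-H727, and at 8.27 in DAXX-KD QGP1, against 8.31 in control QGP1; the 4 dimmer MAPK8 probe sets ranged between -0.72 and 0.22 in NCI-H727 and between -0.17 and 0.33 in QGP1.

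**Figure D3:**
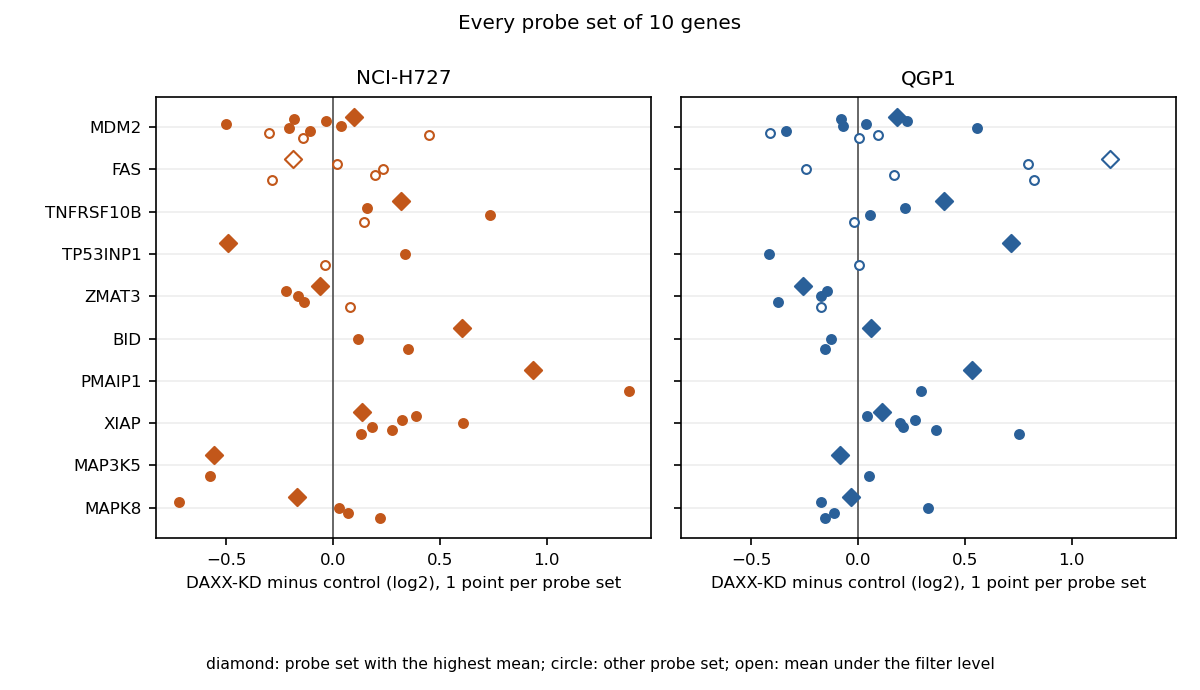
DAXX-KD minus control (log2, horizontal axis) at every probe set of 10 genes in NCI-H727 and QGP1; diamonds are the brightest probe set of a gene, circles the others, and open symbols have a mean under the filter level. PMAIP1 and XIAP are above 0 at every probe set in both lines, MAP3K5 is at -0.56 and -0.58 in NCI-H727, and the probe sets of MDM2, MAPK8 and TP53INP1 lie on both sides of 0.

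The lines differed from each other far more than knockdown from control. In the same limma fit, 15 of the 41 genes were higher in NCI-H727 than in QGP1 (36.6%, beside 23.2% of all genes) and 12 were lower (29.3%, beside 25.1% of all genes) at an adjusted p under 0.05. The median size of the line difference was 0.75 over the 41 genes and 0.43 over all genes. Each line had 2 arrays, 1 DAXX-KD and 1 control, and nothing in the labels says that they came from separate cultures. The 1 residual degree of freedom behind these p-values is how far the knockdown differences of the 2 lines disagree. A prior drawn from all genes adds 4.18 degrees of freedom. The p-values thus do not measure a spread between cultures of a line. Without x_at and s_at probe sets 17 of the 27 genes left were called.

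Of the 7 death receptor signalling genes past the filter, 4 were higher in NCI-H727 and 0 lower, beside 23.2% and 25.1% of all genes. FAS, left out of this count by the filter, had a line difference of -1.71 at its brightest probe set. 3 of its 4 other probe sets were lower in NCI-H727 too, all of them dim. CASP8 was at 9.42 and 9.14 in DAXX-KD and control NCI-H727, against 6.71 and 6.68 in DAXX-KD and control QGP1, a line difference of 2.58 (SE 0.14, limma adjusted p = 0.000138) or 5.99-fold. Its second probe set past the filter was higher by 1.44. TNFRSF10B, with the values given above, was 3.54-fold higher in NCI-H727 (line difference 1.82, SE 0.13, limma adjusted p = 0.000339). CFLAR and FADD were higher by 0.90 and 0.85, though 7 of the 10 CFLAR probe sets were lower in NCI-H727. Of the apoptosome genes, 4 of 6 were higher in NCI-H727 and 1, the effector caspase CASP6, was lower by 1.13. CASP9 was at 10.12 and 9.94 in DAXX-KD and control NCI-H727, against 8.55 and 8.56 in DAXX-KD and control QGP1 (line difference 1.47, limma adjusted p = 0.000822). DIABLO, APAF1 and XIAP were higher by 1.01, 0.91 and 0.70, XIAP at all 7 probe sets.

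The p53 feedback genes MDM2 and CDKN1A stood lower in NCI-H727. The MDM2 line difference was -2.74 (SE 0.13, limma adjusted p = 8.97e-05), 6.69-fold lower in NCI-H727, and its 7 probe sets past the filter were all lower there, by 0.96 to 5.05. CDKN1A was 3.95-fold lower in NCI-H727 (line difference -1.98, SE 0.13, limma adjusted p = 0.000258). TP53INP1 was lower by 2.13 (SE 0.29, limma adjusted p = 0.0032), but its second probe set past the filter differed by 0.20. SESN1 was lower by 1.35, ZMAT3 by 0.76 and XPC by 0.55, while DDB2 and TRIAP1 were higher by 1.21 and 0.91 and SFN by 0.45. DDB2 was at 8.98 and 8.72 in DAXX-KD and control NCI-H727, against 7.73 and 7.55 in DAXX-KD and control QGP1. The p53 targets thus did not share one direction between the lines, and the line differences of GADD45A, CCNG1, PPM1D, TP53I3 and AEN did not pass the test. PPM1D differed by -0.30 at its brightest probe set and by -1.13 at its second.

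Guardians of the BCL2 family were unevenly distributed. BCL2 was at 6.60 and 6.68 in DAXX-KD and control NCI-H727, against 8.21 and 8.45 in DAXX-KD and control QGP1 (line difference -1.69, SE 0.13, limma adjusted p = 0.000468), though its 2 other probe sets past the filter differed by -0.35 and 0.31. MCL1 was lower in NCI-H727 by 1.22 at its brightest probe set, while the 4 others past the filter differed by -0.93 to 0.15. BCL2L2 was at 9.64 and 9.69 in DAXX-KD and control NCI-H727, against 8.68 and 8.42 in DAXX-KD and control QGP1, higher by 1.11 (SE 0.14, limma adjusted p = 0.00254). BCL2L1 differed by -0.04 and did not pass. Among BH3-only genes BIK was at 7.98 and 8.30 in DAXX-KD and control NCI-H727, against 9.65 and 9.58 in DAXX-KD and control QGP1 (line difference -1.48, SE 0.15, limma adjusted p = 0.00125). BCL2L11 was lower by 0.60 at its brightest probe set and higher at its 6 others. BAD and BMF were higher by 0.62 and 0.52, and the line differences of PMAIP1, BID, BAX and BAK1 did not pass. BID differed by 0.04 at its brightest probe set and by -0.76 and 0.11 at its 2 others. MAP3K5 was lower in NCI-H727 by 1.30 and MAPK8 higher by 0.75, with 1 of 5 MAPK8 probe sets lower.

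**Figure D4:**
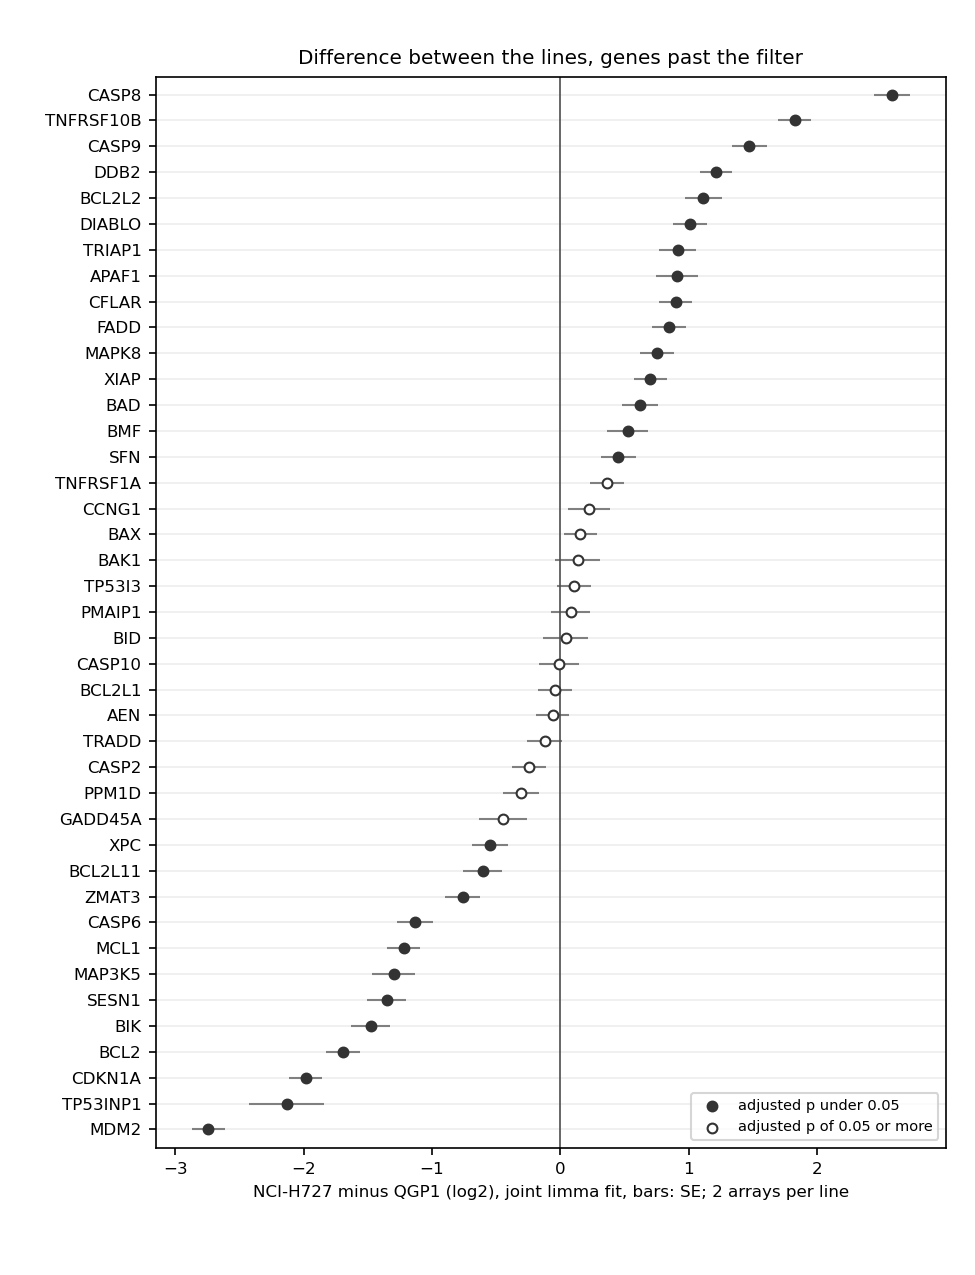
NCI-H727 minus QGP1 (log2, horizontal axis) from the joint limma fit for the 41 genes past the filter, with bars for the SE; filled points have an adjusted p under 0.05. CASP8, TNFRSF10B and CASP9 lie at the higher end and MDM2, TP53INP1 and CDKN1A at the lower end.

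Other genes of the same pathways were taken from 4 lists of 84 genes, of which 73 were measured and 70 passed the filter. The joint limma fit called 0 of the 70 for DAXX-KD, and it did not call DAXX itself. Of the 70, 1 was at least 1.5-fold higher in DAXX-KD NCI-H727, beside 1.6% of all genes, and 2 were lower, beside 4.96%. In DAXX-KD QGP1, 3 were at least 1.5-fold higher, beside 1.74% of all genes, and 1 was lower, beside 1.32%. The 10 measured p53 regulators all differed by less than 1.5-fold in both lines. Of the further p53 targets, the secreted cytokine GDF15 was 1.51-fold higher in DAXX-KD NCI-H727 and differed by -0.05 in QGP1, while RRM2B, a ribonucleotide reductase subunit, was lower by 1.44 in NCI-H727 and by 0.57 in QGP1. SESN2, the sestrin of the amino acid stress response, was 2.83-fold higher in DAXX-KD QGP1 and 1.32-fold lower in DAXX-KD NCI-H727.

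Of the further apoptosis genes, HRK, a BH3-only protein of neurons, was at 5.04 in DAXX-KD NCI-H727, against 4.87 in control NCI-H727, and at 6.33 in DAXX-KD QGP1, against 5.54 in control QGP1, 1.73-fold higher in the second line. The death receptor TNFRSF25 went the other way in NCI-H727, at 4.62 in DAXX-KD cells, under the filter level, against 5.22 in control cells. Below the JNK kinases, JUN was 1.71-fold lower in DAXX-KD QGP1 and differed by 0.07 in NCI-H727. TXNIP, which binds the MAP3K5 inhibitor thioredoxin, was 1.69-fold higher in DAXX-KD QGP1 and differed by -0.12 in NCI-H727.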

How the data were processed

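Total RNA of 4 samples was measured on 1 Affymetrix array each. The deposited values are log2 expression that the authors computed by RMA, with affy 1.40.0 under R 3.0.3 according to the submitters' processing notes. RMA corrects background, quantile-normalizes the arrays and summarises probes per probe set; it compresses differences of dim genes and removes shifts common to all genes. Of 54613 probe sets, 41091 had 1 symbol in the platform annotation and were used; 1801 had several and 11721 none. Array medians were 5.31 to 5.36. Counts and fits use genes whose mean reached 4.85, the 40th percentile over probe sets; dimmer genes were left out.

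Within a line the difference DAXX-KD minus control is given with no test, since each group had 1 array; the number of arrays limits the precision. Treatment and cell line were fitted jointly over all genes with limma 3.58.1 (R 4.3.3; 1 residual and 4.18 prior degrees of freedom; two-sided; Benjamini-Hochberg), tested on simulated data. The pairing comes from the cell line. The genes, lists, rules and tests were chosen with earlier results of these data known. Values in every array are given for genes past 1.5-fold in either line or with an unadjusted p under 0.05, FAS, MAP3K5, MDM2, CDKN1A, MAPK8, and the 5 largest called line differences each way; pathway genes outside the 45 are named where past 1.5-fold and past the filter. FASLG, the marker genes and the genes of the closing observations were named outside that rule, the last after their values were seen. Alternatives were the probe set rule, filters, probe set suffixes, a second quantile normalization, a floor at the filter level, an intensity trend in the prior and no block.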

Additional observations from a re-analysis of the deposited data

Results flagged for a closer look

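FAS and TP53INP1 had opposite signs in the 2 lines, with differences at least 1 log2 unit apart. The FAS difference, DAXX-KD minus control, was -0.19 in NCI-H727, between values under the filter level, and 1.18 in QGP1, so NCI-H727 minus QGP1 was -1.37. The TP53INP1 difference was -0.49 in NCI-H727 and 0.72 in QGP1, a gap of -1.21, and its second probe set past the filter had the opposite pattern (0.33 and -0.42). Neither gap was tested, since each line had 1 pair of arrays.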

How the results depend on the processing

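Averaging all probe sets of each gene, 1 gene was at least 1.5-fold higher in DAXX-KD NCI-H727 and 1 in DAXX-KD QGP1, against 2 and 2. Without x_at and s_at probe sets 27 genes were left: 0 were at least 1.5-fold higher in NCI-H727, as PMAIP1 had no probe set left and BID was at 0.35, the NCI-H727 median was -0.0452 against 0.07, and the joint limma fit called 17 genes between the lines against 27. In that setting 2 genes had an unadjusted p under 0.05 for DAXX-KD, and 1, PMAIP1, had with no replicate block (cell line left out), against 5 with it; adjusted calls were 0 throughout, without the block too. PMAIP1 kept an unadjusted p under 0.05 in all 6 alternatives that could be fitted, with adjusted p from 0.147 to 1. The other 45 alternative values of the counts and medians kept counts within 1.5 times and medians positive and within the probe set SD, though the QGP1 median was 0.02 with averaged probe sets. Among values for single genes (judged by the probe set SD of the line) and unadjusted counts (by 1.5 times), 116 stayed within that limit and 7 did not, among them TP53INP1, at -0.06 in NCI-H727 and 0.10 in QGP1 with the mean of its probe sets. That limit is wide for small differences: with averaged probe sets MDM2 was at -0.09 in NCI-H727 and 0.02 in QGP1, BID at 0.36 in NCI-H727 and -0.07 in QGP1, and TNFRSF10B at 0.17 in QGP1, while PMAIP1 was at 1.16 in NCI-H727. Leaving out an array leaves no residual degree of freedom in the joint fit and no pair in the line of that array, so it was not run. Dim genes such as FAS are limited by signal near background.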

Other observations

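Of 70 pathway genes outside the 45, 18 were higher and 20 lower in NCI-H727 than in QGP1 in the joint limma fit, close to the shares of all genes (23.2% and 25.1%). The genes below were named after their values were seen, by no set rule. Other genes had line differences as wide as some of these, such as TNFRSF25 (-2.52) and FBXW7 (-2.14). MAP2K6, a kinase that activates p38, was at 9.97 and 9.87 in DAXX-KD and control NCI-H727, against 4.38 and 4.88 in DAXX-KD and control QGP1 (line difference 5.29, SE 0.18, limma adjusted p = 3.69e-05). TNFSF10, the TRAIL ligand of TNFRSF10B, was at 3.66 and 3.92 in DAXX-KD and control NCI-H727, under the filter level, against 6.77 and 6.99 in DAXX-KD and control QGP1 (line difference -3.08, SE 0.13, limma adjusted p = 5.97e-05). The receptor TNFRSF10B was higher and its ligand lower in NCI-H727. On the list of further p53 targets, TNFRSF10D and TNFRSF10A were higher there too, by 2.04 and 0.86, and TNFRSF10C differed by 0.05. BOK, a pore-forming relative of BAX, had a line difference of -2.57 (SE 0.18, limma adjusted p = 0.000309), and TP53BP1, a DNA break repair protein that binds p53, one of -2.13 (SE 0.15, limma adjusted p = 0.000373).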
